A study of Arabidopsis thaliana with 4 samples.

Results

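The comparison set RNA levels in line m90, from a study of suppressors of the Arabidopsis thaliana atprmt5 mutation, against those in atprmt5 itself. AtPRMT5 is a protein arginine methyltransferase whose substrates include Sm proteins of the spliceosome. All plants were whole Columbia seedlings 12 days old, grown at 23 °C under a day of 16 h light and a night of 8 h, on Murashige and Skoog medium that held 3% sucrose. The table behind the comparison holds 4 libraries, 1 each from wild type, atprmt5, m90 and a further line, s215. The labels give neither the altered gene in m90 or s215 nor whether those lines still carry atprmt5. Loci entered when their mean over the atprmt5 and m90 libraries reached 1 RPKM, reads scaled to transcript length and to the library's total. This kept 18528 of 24288 loci. Differences are log2 ratios of RPKM + 1 in m90 over RPKM + 1 in atprmt5, and a locus is called higher or lower when the ratio reaches 2-fold. With 1 library per genotype there is no replicate check and no test, so every difference is between these 2 libraries. Ranges in brackets after an RPKM ratio are 95% counting intervals, approximate because the transcript lengths used by the authors were not known. They cover counting error alone and leave out variation between plants.

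Plants hold a common early transcriptional answer to cold, wounding, touch, microbes and changes of light. It begins with calcium entry and protein kinases and reaches short, intron-poor genes for WRKY, ERF and DREB, zinc finger and MYB transcription factors, calmodulin-like proteins and ubiquitin ligases. Calmodulin-binding transcription activators read many of these promoters through a CGCG element. Anthocyanin synthesis, iron uptake and growth driven by auxin are separate programmes, each with its own regulators and enzymes.

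The PRMT5 transcript (AT4G31120, chromosome 4, 15132011 to 15136696, minus strand) had 1.25 RPKM in atprmt5, 0.974 in m90, 5.94 in wild type and 1.70 in s215. The ratio of m90 to atprmt5 was 0.781 (0.502 to 1.22). It was low in both libraries compared here and in s215, and highest in wild type. The libraries were scaled by the authors on between 17350612 and 17901204 reads, and between 1736 and 2893 of the 24288 loci were listed at 0. Shoot genes of photosynthesis were abundant in both libraries, and the 5 markers of seedling shoots lay less than 2-fold apart. CAB1, a chlorophyll-binding protein gene, was at 8913 RPKM in atprmt5 and 9322 in m90. Root genes were present as well, among them PYK10, a root glucosidase gene, at 1484 RPKM in atprmt5 and 1367 in m90. Of the 5 root markers only EXPA7, an expansin gene of root hairs, was called, at 4.98 RPKM in atprmt5 and 1.79 in m90. NRT2.1, a nitrate transporter gene, fell just short, at 1.93 RPKM in atprmt5 and 0.503 in m90. CASP1 alone of the 5 had a log2 ratio above 0, at 9.72 RPKM in atprmt5 and 12.4 in m90. The root genes IRT1 and FRO2 are counted with the iron genes below, and IRT1 was called lower too. Of 5 floral genes, AP1, AP3 and AG were under the minimum. In whole seedlings, fewer cells of a type and less RNA per cell cannot be told apart.

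In m90, 688 loci (3.71%) were at least 2-fold higher than in atprmt5 and 440 (2.37%) at least 2-fold lower, 6.09% together. The remaining 17400 were less than 2-fold apart. Of the higher loci 128 were under 1 RPKM in atprmt5, and of the lower loci 96 were under 1 RPKM in m90. These passed the minimum only through the library where they were high and had to differ. The larger differences lay mostly on the higher side, with 246 loci at least 4-fold higher against 37 at least 4-fold lower. At 8-fold the numbers were 90 and 6. The median log2 ratio over all 18528 loci was -0.04 and its SD was 0.59. The median level of the 688 higher loci was 4.71 RPKM in atprmt5, 19.9 in m90, 10.9 in wild type and 6.46 in s215. For the 440 lower loci these medians were 11.7 in atprmt5, 3.63 in m90, 6.96 in wild type and 4.89 in s215. Differences of atprmt5 from wild type and from m90 share the atprmt5 library, so a level in atprmt5 that is off moves both.

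**Figure D1:**
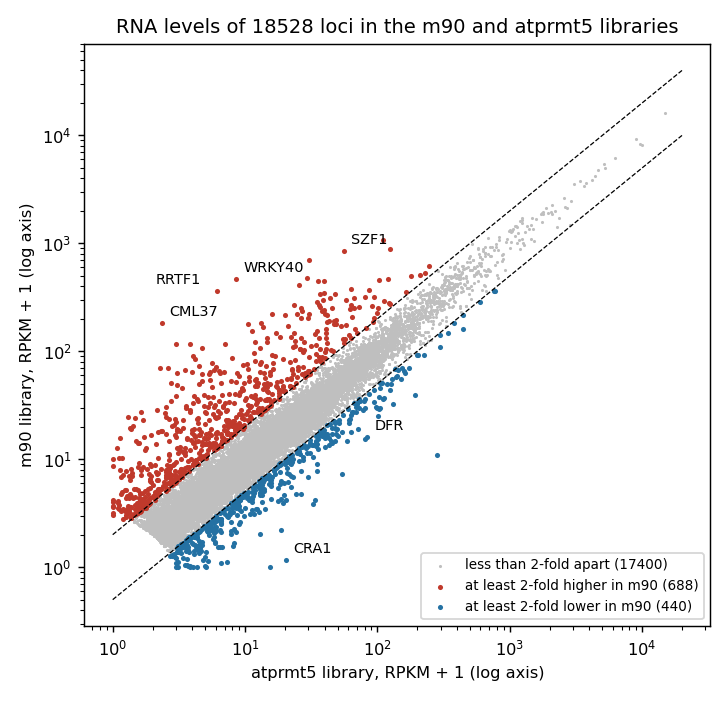
RNA level in the m90 library (vertical) against the atprmt5 library (horizontal), as RPKM + 1 on log axes, for 18528 loci. Each point is a locus, dashed lines mark a 2-fold difference, and the 688 higher loci spread farther from the lines than the 440 lower ones.

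The higher loci had few introns. In the reference annotation, 44.6% of them had 1 exon, against 36.4% of the lower loci and 14.0% of the loci less than 2-fold apart. Loci with 6 or more exons made up 9.62% of the higher, 23.0% of the lower and 43.4% of the remaining loci. Median exonic length was 1380 bases in the higher, 1533 in the lower and 1761 in the remaining loci. Exon number and length go together with family, so these shares are not independent of the families described next.

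The highest ratios belonged to regulators of fast stress responses. CML37, a calmodulin-like calcium sensor gene (AT5G42380, chromosome 5, 16942447 to 16943820, minus strand), had 1.34 RPKM in atprmt5, 180.3 in m90, 35.04 in wild type and 23.8 in s215. Its m90 value was the highest of the 4 and its atprmt5 value the lowest, a ratio of 134 (95.5 to 195). RRTF1, an ERF gene named for its response to redox changes (AT4G34410, chromosome 4, 16451876 to 16453260, plus strand), had 5.16 RPKM in atprmt5, 359 in m90, 109.7 in wild type and 0.329 in s215. The ratio was 69.6 (58.4 to 83.5), and s215 was lower still than atprmt5. WRKY40, a WRKY repressor of defence genes (AT1G80840, chromosome 1, 30383561 to 30385499, plus strand), stood at 7.58 RPKM in atprmt5, 469 in m90, 172 in wild type and 57.3 in s215. Its ratio was 61.8 (53.3 to 71.9), with m90 above wild type and atprmt5 lowest. ERF13, another ERF gene, was at 1.26 RPKM in atprmt5 and 69.01 in m90, and MYB15, a MYB gene induced by cold and microbial patterns, at 2.84 RPKM in atprmt5 and 115 in m90. The ARM repeat gene AT3G02840 was at 2.01 RPKM in atprmt5 and 115 in m90 and the nuclease gene AT4G29780 at 29.3 RPKM in atprmt5 and 695 in m90. BPS3, a BPS1-like gene, was at 1.62 RPKM in atprmt5 and 69.2 in m90, and AT5G45630, whose protein has a domain of unknown function, at 3.69 RPKM in atprmt5 and 106 in m90. AT2G25460, named for an EEIG1/EHBP1 domain, was at 1.76 RPKM in atprmt5 and 49.9 in m90, and the DREB-type locus AT5G52020 at 0.294 RPKM in atprmt5 and 23.7 in m90. AT5G52020 passed the minimum only through m90.

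Of a list of 17 stress regulators, all above the minimum, 15 were higher in m90 and 0 lower, and the median log2 ratio was 3.21. This list and all other lists by role had been drawn up with earlier results of these data known, so their counts are descriptions. Over all loci 3.71% were higher and 2.37% lower. WRKY33, a regulator of camalexin and fungal resistance, was at 28.5 RPKM in atprmt5, 479 in m90, 185 in wild type and 265 in s215. WRKY46 was at 9.49 RPKM in atprmt5 and 179 in m90 and WRKY53, a senescence regulator, at 2.31 RPKM in atprmt5 and 44.4 in m90. The CCCH zinc finger gene SZF1, which responds to salt, stood at 54.99 RPKM in atprmt5, 842 in m90, 373 in wild type and 62.03 in s215. Its relative CZF1 was at 18.9 RPKM in atprmt5 and 218 in m90. All 4 C2H2 zinc finger genes of the list were higher: ZAT7 at 2.94 RPKM in atprmt5 and 63.9 in m90, AZF2 at 5.96 RPKM in atprmt5 and 63.6 in m90, ZAT10 at 10.7 RPKM in atprmt5 and 95.1 in m90 and ZAT12 at 34.2 RPKM in atprmt5 and 288 in m90. The NAC gene NAC062, whose product is tethered to membranes, was at 11.9 RPKM in atprmt5 and 106 in m90, and ATAF1, another NAC gene, at 17.5 RPKM in atprmt5 and 52.6 in m90. CBP60G, a calmodulin-binding activator of salicylic acid synthesis, was at 2.67 RPKM in atprmt5 and 14.4 in m90. The members short of 2-fold were WRKY18, at 16.5 RPKM in atprmt5 and 32.3 in m90, and SARD1, a relative of CBP60G, at 1.56 RPKM in atprmt5 and 3.79 in m90.

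Over whole families, the ERF and DREB group held the most higher members: of 70 members above the minimum, 27 were higher and 3 lower, against 3.71% and 2.37% of all loci. Of the 27, 6 were under 1 RPKM in atprmt5. DDF1, a DREB gene that delays flowering by reducing gibberellin, was at 3.07 RPKM in atprmt5 and 88.9 in m90. ORA47, an activator of jasmonate synthesis, was at 3.16 RPKM in atprmt5 and 84.2 in m90. The lower members were AT5G61590 at 99.6 RPKM in atprmt5 and 24.1 in m90, AT2G44940 at 8.41 RPKM in atprmt5 and 3.53 in m90 and AT5G07580 at 84.7 RPKM in atprmt5 and 39.3 in m90. Of 48 WRKY genes, 8 were higher and 0 lower, but the family median was 0.06, so most WRKY genes differed little. Of the higher ones, WRKY22, a gene of the flagellin pathway, was at 26.04 RPKM in atprmt5 and 235 in m90 and WRKY11 at 207 RPKM in atprmt5 and 510.2 in m90. Of 62 NAC genes 6 were higher and 2 lower, and of 61 C2H2 zinc finger genes 6 and 3. ZFP8, a trichome regulator, was on the lower side at 62.7 RPKM in atprmt5 and 16.8 in m90. Of 100 MYB and MYB-like genes 12 were higher and 5 lower, with MYB77, which acts in lateral root growth, at 56.6 RPKM in atprmt5 and 295 in m90 and MYB94, a wax regulator, at 12.1 RPKM in atprmt5 and 3.89 in m90. The bHLH family had more lower than higher members, 8 against 5 of 95. Its lowest was AT4G28790, at 17.8 RPKM in atprmt5 and 1.21 in m90.

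**Figure D2:**
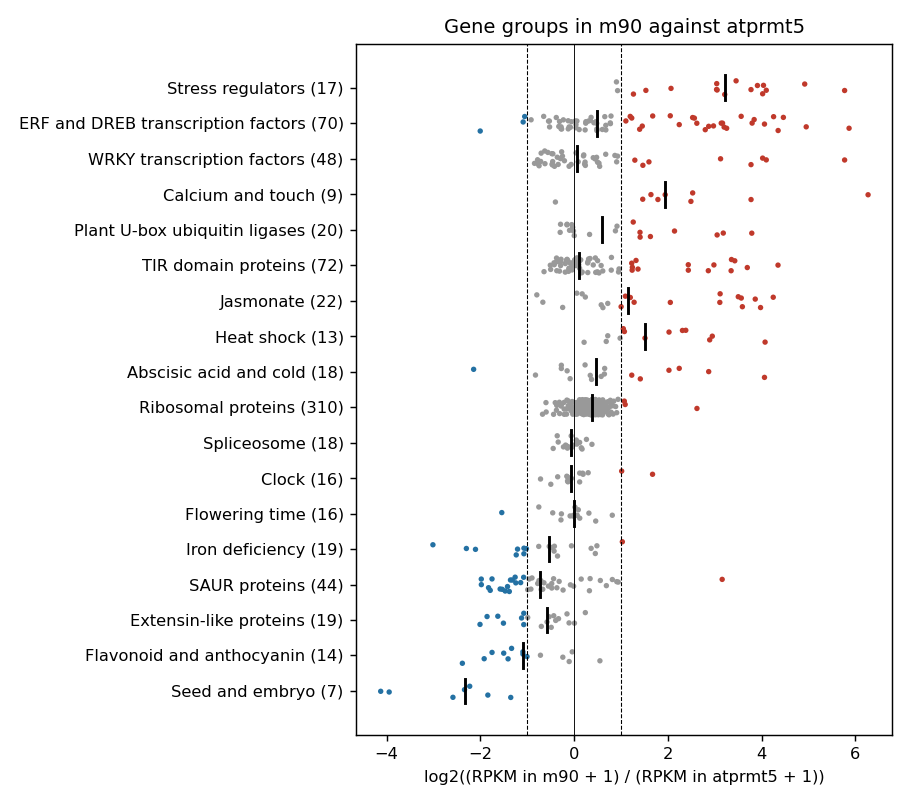
Log2 ratio of m90 over atprmt5, computed on RPKM + 1, for the members of 18 lists and families that passed the minimum (number in brackets). Points are loci, red at least 2-fold higher and blue at least 2-fold lower, and black bars are medians, from 3.21 for the stress regulators to -2.34 for the seed and embryo list.

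Promoters of the called loci were compared with those of the other loci. They were taken as the 250 bases before the RefSeq start of each gene's longest transcript in the TAIR10.1 assembly. Motifs were searched on both strands. The CGCG element, searched as CGCGT, was in 20.7% of the promoters of 670 higher protein-coding loci. The share was 7.06% of 411 lower loci, 7.27% of 17012 loci less than 2-fold apart, and 7% of all 27444 promoters of the reference. Among the 90 loci at least 8-fold higher it was 25.6%. Median GC content of the promoters was 31.2% in both called groups and 31.6% in the remainder. The W box core bound by WRKY proteins, TTGAC, was in 58.2% of higher, 44.3% of lower and 44.1% of the remaining promoters. The 6 promoters that follow are shown because their genes are described here and hold an element counted above or in the next paragraph: the CGCG element in ZAT7, DDF1 and AT1G66090, the W box core in WRKY40, the heat shock element GAANNTTC in HSFA2 and the G box CACGTG in DFR. Capitals mark the matches, on either strand. A match is a description of the letters and not evidence of binding.
ZAT7 promoter (chr3:16926884-16927133, minus strand): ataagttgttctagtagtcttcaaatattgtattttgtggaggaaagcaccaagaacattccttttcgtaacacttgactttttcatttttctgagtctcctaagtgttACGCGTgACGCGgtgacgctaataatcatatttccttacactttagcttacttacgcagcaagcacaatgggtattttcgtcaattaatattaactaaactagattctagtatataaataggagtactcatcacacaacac
DDF1 promoter (chr1:4291018-4291267, minus strand): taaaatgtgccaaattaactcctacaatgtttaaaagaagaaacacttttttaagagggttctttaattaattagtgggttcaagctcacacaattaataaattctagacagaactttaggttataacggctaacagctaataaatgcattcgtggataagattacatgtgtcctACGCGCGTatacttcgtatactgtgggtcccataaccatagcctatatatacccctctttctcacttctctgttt
AT1G66090 promoter (chr1:24601783-24602032, plus strand): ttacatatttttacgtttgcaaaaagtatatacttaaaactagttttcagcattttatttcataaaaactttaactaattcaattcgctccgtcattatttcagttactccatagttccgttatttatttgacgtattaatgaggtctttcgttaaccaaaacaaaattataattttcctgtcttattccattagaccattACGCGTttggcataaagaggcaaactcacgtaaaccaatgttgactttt
WRKY40 promoter (chr1:30383311-30383560, plus strand): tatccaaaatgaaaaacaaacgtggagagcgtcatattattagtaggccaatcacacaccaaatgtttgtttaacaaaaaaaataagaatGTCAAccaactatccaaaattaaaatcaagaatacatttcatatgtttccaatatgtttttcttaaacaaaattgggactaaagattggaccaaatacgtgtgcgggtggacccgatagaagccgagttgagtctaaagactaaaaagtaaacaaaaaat
HSFA2 promoter (chr2:11135374-11135623, plus strand): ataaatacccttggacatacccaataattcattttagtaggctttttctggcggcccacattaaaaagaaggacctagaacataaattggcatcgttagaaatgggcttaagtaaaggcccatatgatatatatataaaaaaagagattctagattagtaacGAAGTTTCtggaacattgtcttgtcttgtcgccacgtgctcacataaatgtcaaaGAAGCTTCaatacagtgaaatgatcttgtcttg
DFR promoter (chr5:17166033-17166282, minus strand): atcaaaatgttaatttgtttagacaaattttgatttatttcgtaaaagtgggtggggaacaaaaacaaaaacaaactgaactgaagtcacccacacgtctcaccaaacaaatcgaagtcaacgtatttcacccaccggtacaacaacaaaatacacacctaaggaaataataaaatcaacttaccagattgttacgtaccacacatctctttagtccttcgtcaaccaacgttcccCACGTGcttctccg

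The heat shock element was in 16.3% of higher promoters, 8.76% of lower and 8.99% of the remainder. The G box, a site of bHLH and bZIP proteins, was in 11.6%, 8.52% and 7.49% in the same order. The DRE core CCGAC, bound by DREB proteins, was in 13.6%, 10.9% and 13.4%. The GCC box GCCGCC of ERF proteins was in 3.13%, 2.43% and 1.85%, and in 6 of the 90 promoters of loci at least 8-fold higher (6.67%). The site II element TGGGCC, common in promoters of ribosomal protein genes, was in 8.21% of higher and 8.76% of lower promoters against 17.8% of the remainder. The telo box AAACCCTA was in 1.94%, 2.92% and 3.76%.

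**Figure D3:**
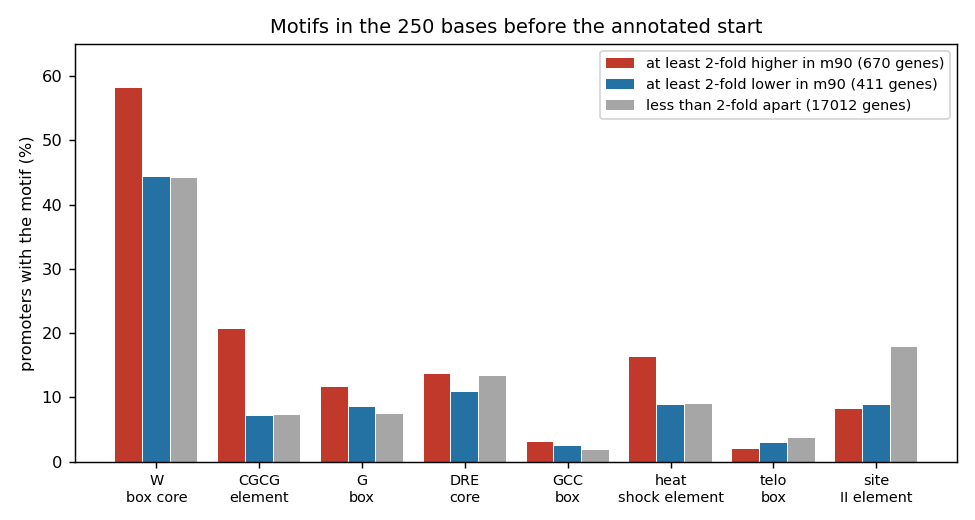
Share of promoters (250 bases) holding each of 8 motifs, in percent, for protein-coding loci higher in m90 (670), lower in m90 (411) or less than 2-fold apart (17012). Bars start at 0, and the CGCG element shows the widest ratio between the higher group (20.7%) and the remainder (7.27%).

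Of 9 calcium and touch genes above the minimum, 8 were higher and 0 lower. Their median log2 ratio was 1.94. CML38, a close relative of CML37, was at 10.4 RPKM in atprmt5 and 155 in m90. The touch genes TCH2 and TCH3, both for calmodulin-like proteins, were at 178 RPKM in atprmt5 and 492 in m90 and at 44.1 RPKM in atprmt5 and 253 in m90. TCH4, for a xyloglucan-modifying wall enzyme, was at 119.6 RPKM in atprmt5 and 463 in m90. ACA13, a calcium pump gene, was at 2.39 RPKM in atprmt5 and 10.7 in m90, and CML42 was the exception, at 1.40 RPKM in atprmt5 and 0.816 in m90. Of 42 genes matched by product name to calmodulin-like and EF-hand proteins, which bind calcium, 12 were higher and 0 lower. The match left out TCH2 and TCH3. Of the 12, 3 were under 1 RPKM in atprmt5. AT4G27280, an EF-hand gene, was at 47.1 RPKM in atprmt5 and 341 in m90. In the kinase cascade list 7 of 9 were higher and 0 lower, against 3.71% and 2.37% of all loci. MPK3, a terminal kinase of immune signalling, was at 46.3 RPKM in atprmt5, 179 in m90, 58.4 in wild type and 147 in s215. Its ratio was 3.87 (3.66 to 4.09), while its partner MPK6 was at 19.5 RPKM in atprmt5 and 18.5 in m90. AP2C1, a phosphatase that acts on MPK3 and its relatives, was at 12.1 RPKM in atprmt5 and 184 in m90, OXI1, a kinase activated by hydrogen peroxide, at 2.86 RPKM in atprmt5 and 26.2 in m90, and MKK9, a kinase kinase, at 4.08 RPKM in atprmt5 and 25.9 in m90.

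Pattern-triggered immunity starts when receptors meet microbial molecules or peptides released on damage, and 10 of its 13 genes above the minimum were higher and 1 lower. The 3 PROPEP genes, which encode precursors of a damage peptide, passed the minimum only through m90, so that their higher values were bound to follow. PROPEP1 was at 0.682 RPKM in atprmt5 and 3.90 in m90 and PROPEP2 at 0.276 RPKM in atprmt5 and 2.43 in m90. PROPEP3 was listed at 0 in atprmt5 and at 8.95 RPKM in m90. It was 27.7-fold higher against a floor of 3 reads, and the counting interval of its ratio began at 22.1. Their receptor genes PEPR1 and PEPR2 were at 18.3 RPKM in atprmt5 and 41.8 in m90 and at 1.02 RPKM in atprmt5 and 4.73 in m90. FLS2, the flagellin receptor gene, was the lower member, at 8.96 RPKM in atprmt5 and 3.57 in m90, a ratio of 0.399 (0.344 to 0.459). RBOHD, the oxidase that makes the immune burst of reactive oxygen, was at 21.9 RPKM in atprmt5 and 60.1 in m90. Of 20 plant U-box ligases 8 were higher and 0 lower. PUB22 and PUB23, which damp immune signalling, were at 13.5 RPKM in atprmt5 and 131 in m90 and at 13.8 RPKM in atprmt5 and 122 in m90, and PUB19, a negative regulator of drought responses, at 4.66 RPKM in atprmt5 and 77.4 in m90. RING finger proteins, the larger family of ligases, lay nearer the background, with 12 of 216 higher and 5 lower. AT1G14200 was the highest of them, at 10.8 RPKM in atprmt5 and 79.4 in m90.

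TIR domain proteins, a class of intracellular immune receptors and short relatives, had 14 of 72 members higher and 0 lower, and 4 of the 14 were under 1 RPKM in atprmt5. The family median was 0.10, so most members hardly differed. The TIR-NBS class gene at AT1G66090, chromosome 1, 24602033 to 24604763, plus strand, had 2.08 RPKM in atprmt5, 61.97 in m90, 13.6 in wild type and 12.8 in s215, with a ratio of 29.7 (23.2 to 39.1). AT5G41740 and its neighbour AT5G41750 were at 2.003 RPKM in atprmt5 and 37.9 in m90 and at 1.47 RPKM in atprmt5 and 25.6 in m90. AT1G72910 and AT1G72920 were at 5.33 RPKM in atprmt5 and 63.99 in m90 and at 10.9 RPKM in atprmt5 and 120.5 in m90. The CGCG element was in 35.7% of the 14 promoters, a small number to take a share of. It was in 14.8% of the promoters of the 27 higher ERF and DREB genes. Among the 12 higher calmodulin-like and EF-hand genes the share was 16.7%, against 20.7% of all higher loci. Of 124 genes matched by product name to leucine-rich receptor-like kinases, 1 was higher (0.806%) and 1 lower (0.806%), against 3.71% and 2.37% of all loci. The lower one was FLS2. The higher one was SOBIR1, at 65.1 RPKM in atprmt5 and 309 in m90. SOBIR1 encodes a partner of receptor-like proteins in immunity. The receptor genes PEPR1 and PEPR2, called higher above, have other product names and were not among the 124. Cysteine-rich receptor-like kinases had 3 of 19 higher, with CRK11 at 3.76 RPKM in atprmt5 and 12.5 in m90, and 1 lower, CRK42, at 17.5 RPKM in atprmt5 and 6.65 in m90. VQ motif proteins, partners of WRKY factors, had 5 of 16 higher, among them AT2G22880 at 0.486 RPKM in atprmt5 and 23.2 in m90. AT2G22880 passed the minimum only through m90, so its higher value was bound to follow. Nudix hydrolases, which cleave nucleoside diphosphates linked to another group, held strong members of both directions. NUDT4 was at 22.4 RPKM in atprmt5 and 268 in m90 and NUDT21 at 38.4 RPKM in atprmt5 and 242 in m90, whereas NUDT24 was at 53.1 RPKM in atprmt5, 6.35 in m90, 3.96 in wild type and 0.316 in s215. NUDT24 was thus high in atprmt5 alone, with a ratio of m90 to atprmt5 of 0.119 (0.101 to 0.140).

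**Figure D4:**
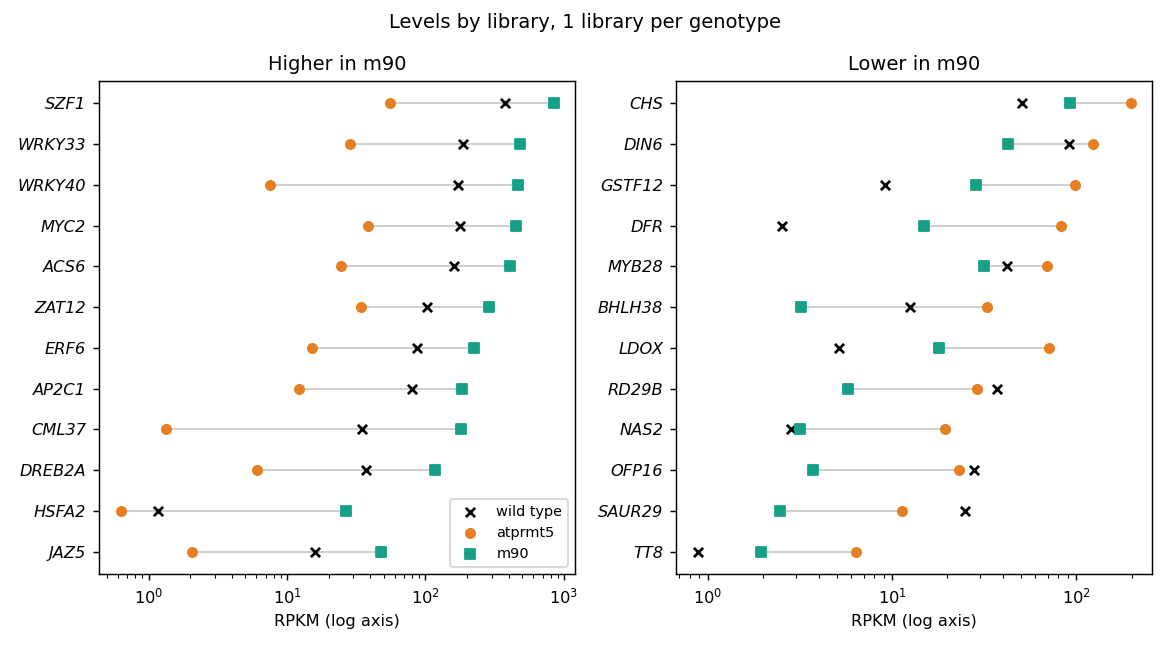
RPKM on log axes in the wild-type, atprmt5 and m90 libraries for 12 named genes higher (left) and 12 lower (right) in m90, with a grey line from atprmt5 to m90. On the left the wild-type value lies between the other two for each gene, for instance WRKY40 with 172 RPKM in wild type against 7.58 and 469, and on the right its place varies.

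Among the hormone lists, jasmonate, the hormone of wounding, held the most higher genes, but it was also the longest list. Of 22 genes 13 were higher (59.1%) and 0 lower, close to the 60% of ethylene genes above the minimum. The median log2 ratio was 1.15 for jasmonate genes, 1.88 for ethylene genes and 1.52 for gibberellin genes. Of the synthesis genes LOX3 and LOX4, for lipoxygenases, were at 5.05 RPKM in atprmt5 and 70.7 in m90 and at 1.54 RPKM in atprmt5 and 29.6 in m90, but LOX2, the most abundant lipoxygenase gene here, was at 132 RPKM in atprmt5 and 149 in m90. AOC1, for an allene oxide cyclase, was at 13.3 RPKM in atprmt5 and 7.24 in m90 and its relative AOC3 at 5.42 RPKM in atprmt5 and 25.6 in m90. The repressor genes of the JAZ group were higher in 6 of 9 cases, 3 of which were under 1 RPKM in atprmt5. JAZ1 was at 16.1 RPKM in atprmt5, 147 in m90, 55.3 in wild type and 39.7 in s215 and JAZ5 at 2.07 RPKM in atprmt5, 47.4 in m90, 16.02 in wild type and 8.04 in s215. In both, m90 was highest, wild type next and atprmt5 lowest. JAZ8 was listed at 0 in atprmt5 and at 7.63 RPKM in m90. It was 36.7-fold higher against a floor of 3 reads, and the counting interval of its ratio began at 29.5. JAZ12, by contrast, was at 30.4 RPKM in atprmt5 and 25.5 in m90. MYC2, the master regulator of the pathway, was at 38.6 RPKM in atprmt5, 448 in m90, 178 in wild type and 69.5 in s215, although its exon overlaps one of AT1G32630 on the other strand, whose reads cannot be told apart unless the counting used strand. CYP94B3, which inactivates the hormone, was at 2.54 RPKM in atprmt5 and 66.3 in m90, a ratio of 26.1 (21.2 to 32.9). The defence outputs VSP1 and VSP2 were at 3.92 RPKM in atprmt5 and 6.53 in m90 and at 161 RPKM in atprmt5 and 266 in m90, short of 2-fold. By product name, JAZ proteins were higher in 5 of 9 cases.

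Of 10 ethylene genes above the minimum 6 were higher and 0 lower. The higher ones included all 5 regulators above the minimum. ACS6, which makes the ethylene precursor and is a substrate of MPK3 and MPK6, was at 24.4 RPKM in atprmt5, 409.5 in m90, 161 in wild type and 14.5 in s215. ERF6 and ERF5, activators of defence genes, were at 15.04 RPKM in atprmt5 and 222 in m90 and at 25.4 RPKM in atprmt5 and 251 in m90. CHIB, a basic chitinase gene and the only output gene above the minimum, was at 27.7 RPKM in atprmt5 and 28.1 in m90.

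Among 18 genes of abscisic acid and cold, 6 were higher and 1 lower. DREB2A, a regulator of drought and heat responses, was at 6.02 RPKM in atprmt5, 116 in m90, 37.4 in wild type and 10.1 in s215. CBF1, CBF2 and CBF3, which start cold acclimation, were at 2.01 and 21.02 RPKM, 8.51 and 44.03 RPKM and 1.42 and 4.66 RPKM in atprmt5 and m90. NCED3, for the limiting enzyme of abscisic acid synthesis under drought, was at 3.12 RPKM in atprmt5 and 15.7 in m90. Most protective genes under these regulators did not follow them by 2-fold. COR15A, which protects chloroplast membranes in the cold, was at 122 RPKM in atprmt5 and 109.8 in m90 and RD29A at 91.2 RPKM in atprmt5 and 75.3 in m90. KIN1 was the higher one, at 16.4 RPKM in atprmt5 and 45.2 in m90, and RD29B, an abscisic acid marker, the lower one, at 29.04 RPKM in atprmt5, 5.79 in m90, 37.3 in wild type and 1.05 in s215. CYP707A3, whose enzyme degrades abscisic acid, was at 4.87 RPKM in atprmt5 and 65.8 in m90.

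Salicylic acid genes gave a mixed picture, with 2 of 11 higher and 1 lower. GRX480, a glutaredoxin gene of the pathway, was at 0.369 RPKM in atprmt5 and 17.9 in m90 and PAD4, an immune lipase-like regulator, at 7.60 RPKM in atprmt5 and 23.4 in m90. GRX480 passed the minimum only through m90, so its higher value was bound to follow. The marker PR1 was lower, at 13.1 RPKM in atprmt5 and 2.44 in m90. PR5, another output gene, went the other way short of 2-fold, at 7.47 RPKM in atprmt5 and 11.5 in m90, and PR2 was under the minimum. ICS1, for the main synthesis enzyme, was at 7.14 RPKM in atprmt5 and 5.76 in m90. Of 6 gibberellin genes above the minimum 3 were higher: DDF1, its relative DDF2 at 0.111 RPKM in atprmt5 and 9.22 in m90, and GA2OX6, which inactivates gibberellins, at 1.14 RPKM in atprmt5 and 12.96 in m90. The ratio for DDF2, 82.9 (21.9 to 670.0), rests on about 2 reads in atprmt5, and DDF2 passed the minimum only through m90. The synthesis genes GA20OX1 and GA3OX1 were at 1.68 RPKM in atprmt5 and 0.614 in m90 and at 2.49 RPKM in atprmt5 and 1.21 in m90.

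All 6 heat shock factor genes of the heat shock list were higher, with a median log2 ratio of 2.64. Of the 5 chaperone genes above the minimum 2 were higher, with a median of 0.98. HSFA2, which sustains heat tolerance (AT2G26150, chromosome 2, 11135624 to 11137792, plus strand), had 0.628 RPKM in atprmt5, 26.5 in m90, 1.18 in wild type and 1.29 in s215. Its level in m90 was far above the other 3 libraries, with a ratio to atprmt5 of 42.1 (27.5 to 68.7). HSFA2 passed the minimum only through m90, so a higher value there was bound to follow. HSFB2A was at 8.73 RPKM in atprmt5 and 74.2 in m90, HSFB2B at 2.83 RPKM in atprmt5 and 27.5 in m90 and HSFA7A at 4.84 RPKM in atprmt5 and 29.5 in m90. Of chaperone genes HSP101, which frees aggregated proteins, was at 3.38 RPKM in atprmt5 and 20.8 in m90 and HSP70 at 40.8 RPKM in atprmt5 and 118 in m90. HSP90.1 was just under 2-fold, at 34.9 RPKM in atprmt5 and 69.9 in m90. The chaperone genes HSP21 and HSP17.6II were under the minimum. HSP21, for a chloroplast chaperone strongly induced by heat, was at 0.0596 RPKM in atprmt5 and 0.0599 in m90. That is about 1 read in each library, too few to compare. HSP17.6II was at 0.159 RPKM in atprmt5, about 3 reads, and 1.68 in m90, a ratio of 10.6 (2.67 to 45.0). By product name, 7 of 17 factor genes were higher and 1 lower, the latter being HSFA6A at 20.7 RPKM in atprmt5 and 8.24 in m90. Of the 7, 2 were under 1 RPKM in atprmt5. Of 61 heat shock protein genes 9 were higher and 0 lower, and the family's median log2 ratio was 0.17.

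On the lower side, the anthocyanin pathway stood out by role. Of 14 flavonoid and anthocyanin genes above the minimum 9 were lower and 0 higher, with a median log2 ratio of -1.09. All 5 late enzyme genes were lower. DFR, for the reductase that opens the anthocyanin branch (AT5G42800, chromosome 5, 17164093 to 17166032, minus strand), stood at 82.3 RPKM in atprmt5, 14.9 in m90, 2.54 in wild type and 1.18 in s215. Its atprmt5 level was the highest and m90 lay between atprmt5 and wild type, with a ratio of 0.181 (0.163 to 0.202). LDOX, for the next enzyme, was at 70.8 RPKM in atprmt5, 17.97 in m90, 5.14 in wild type and 0.320 in s215. The glycosyltransferase genes UF3GT and AT4G14090 were at 12.4 RPKM in atprmt5 and 4.03 in m90 and at 12.03 RPKM in atprmt5 and 5.11 in m90, and the acyltransferase gene 5MAT was at 8.999 RPKM in atprmt5 and 2.53 in m90. GSTF12, which carries anthocyanin toward the vacuole, was at 98.5 RPKM in atprmt5, 28.5 in m90, 9.21 in wild type and 6.84 in s215. Of the 5 earlier enzyme genes, shared with flavonols, 2 were lower, with a median log2 ratio of -0.72 against -1.50 for the late ones. The 2 were CHS, for the entry enzyme chalcone synthase, at 198 RPKM in atprmt5 and 92.3 in m90, and F3'H, at 6.89 and 2.93. The log2 ratio of CHS, -1.09, was that of the late gene AT4G14090. F3H was at 63.9 RPKM in atprmt5 and 38.4 in m90. CHI and the flavonol gene FLS1 were at 17.03 RPKM in atprmt5 and 14.3 in m90 and at 12.2 RPKM in atprmt5 and 11.2 in m90. Of the regulators TT8, a bHLH factor, was lower, at 6.40 RPKM in atprmt5 and 1.93 in m90. PAP1, its MYB partner, was at 7.02 RPKM in atprmt5 and 6.80 in m90, and PAP2 was listed at 0 in both libraries.

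Iron deficiency genes were lower in part. Of 19 above the minimum 8 were lower and 1 higher, and the median log2 ratio was -0.53. The 4 bHLH genes of the group that is switched on when iron is short were all lower. BHLH38 was at 32.9 RPKM in atprmt5, 3.20 in m90, 12.6 in wild type and 0.126 in s215 and BHLH39 at 16.7 RPKM in atprmt5, 3.10 in m90, 5.41 in wild type and 0 in s215. Both were highest in atprmt5 and lowest in s215, and BHLH38 had a ratio of m90 to atprmt5 of 0.0971 (0.0740 to 0.127). BHLH100 and BHLH101 were at 13.98 RPKM in atprmt5 and 6.12 in m90 and at 14.9 RPKM in atprmt5 and 5.88 in m90. Their partner FIT, required for uptake in roots, was at 1.09 RPKM in atprmt5 and 1.86 in m90. IRT1, the main iron transporter gene of roots, was at 12.2 RPKM in atprmt5 and 4.62 in m90, and FRO2, for the root iron reductase, at 3.66 RPKM in atprmt5 and 2.64 in m90. NAS2, which makes the iron chelator nicotianamine, was at 19.4 RPKM in atprmt5 and 3.15 in m90, against 78.1 RPKM in atprmt5 and 53.7 in m90 for NAS1. The higher member was PYE, a repressor within the response, at 6.89 RPKM in atprmt5 and 15.1 in m90. The abundant small-peptide loci AT1G47395 and AT2G30766 were at 126 RPKM in atprmt5 and 121 in m90 and at 71.7 RPKM in atprmt5 and 92.4 in m90. Of 6 iron storage genes VTL1, a vacuolar transporter gene, was higher, at 0.497 RPKM in atprmt5 and 4.29 in m90, and the ferritin gene FER1 was at 28.4 RPKM in atprmt5 and 41.9 in m90. VTL1 passed the minimum only through m90, so its higher value was bound to follow.

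Seed genes were the lowest of all lists. Of 13 measured, 7 passed the minimum, and each did so only through the atprmt5 library, so their lower values in m90 were bound to follow and are a description. CRA1, a gene for the seed storage protein cruciferin, was at 19.2 RPKM in atprmt5, 0.157 in m90, 67.8 in wild type and 0.193 in s215. CRC, another cruciferin gene, was at 89.3 RPKM in wild type and 14.4 in atprmt5 and listed at 0 in m90. Against a floor of 3 reads in m90 it was 154-fold lower, and the counting interval of its ratio reached up to 0.00803. OLEO1, for an oil body protein, was at 4.06 RPKM in atprmt5 and listed at 0 in m90. TIP3;1, a seed vacuole aquaporin gene, was at 5.58 RPKM in atprmt5, 0.0953 in m90, 13.6 in wild type and 0 in s215. Wild type and atprmt5 were thus the libraries with seed transcripts, and m90 and s215 were near 0. Late embryogenesis abundant proteins, which protect drying seeds, had 6 of 24 lower and 0 higher, but 4 of the 6 also passed the minimum only through atprmt5. AT3G17520 was at 25.6 RPKM in atprmt5 and 3.75 in m90 and AT3G53040 at 11.95 RPKM in atprmt5 and 1.02 in m90. AT4G21020 and AT2G42560 were at 6.30 and 0.106 RPKM and at 4.002 and 0.0258 RPKM in atprmt5 and m90.

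Small auxin up RNA (SAUR) genes, which promote cell expansion, had 16 of 44 members lower and 1 higher. Of the 16, 6 passed the minimum only through atprmt5, so the count and the family's median log2 ratio of -0.73 are set in part by that minimum. AT4G38840 was at 11.7 RPKM in atprmt5, 2.22 in m90, 10.3 in wild type and 3.16 in s215 and SAUR29 at 11.3 RPKM in atprmt5, 2.47 in m90, 24.9 in wild type and 2.37 in s215. In both, m90 was lower than wild type and atprmt5. AT4G34770 was at 3.95 RPKM in atprmt5 and 0.254 in m90 and AT1G29460 at 4.90 RPKM in atprmt5 and 0.706 in m90. The higher member was AT3G09870, at 1.66 RPKM in atprmt5 and 22.8 in m90. Many SAUR genes lay at a few RPKM, and with a pseudocount of 5 the family median was -0.34. Few other auxin genes were called. Of 19 genes matched to Aux/IAA proteins 1 was lower, ATAUX2-11 at 46.05 RPKM in atprmt5 and 21.5 in m90, and of 12 GH3 genes, whose enzymes conjugate auxin, 1 was lower, DFL2 at 38.7 RPKM in atprmt5 and 17.7 in m90.

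Cell wall genes fell on both sides. Of 19 extensin-like genes, for structural glycoproteins of the wall, 7 were lower and 0 higher, a group picked after its values were seen. Of the 7, 2 passed the minimum only through atprmt5. EXT13 was at 7.61 RPKM in atprmt5 and 1.14 in m90 and EXT6 at 6.87 RPKM in atprmt5 and 1.17 in m90. EXPA7, 1 of the 5 root markers, was called lower as well, as was the root gene IRT1 of the iron list. The part of root or root hair RNA in these values was not tested. Of 22 expansin genes, which loosen walls, 4 were lower and 1 higher, and 2 of the 4 passed the minimum only through atprmt5. EXPA16 was at 4.07 RPKM in atprmt5 and 0.380 in m90 and EXLA3 at 1.55 RPKM in atprmt5 and 23.5 in m90. Xyloglucan endotransglucosylases had 2 of 23 higher and 3 lower, with XTH18 at 4.76 RPKM in atprmt5 and 25.4 in m90 and XTH9 at 151 RPKM in atprmt5 and 54.6 in m90. Of 8 OVATE genes, repressors of growth and also chosen after their values were seen, 3 were lower, with OFP16 at 23.2 RPKM in atprmt5, 3.73 in m90, 27.9 in wild type and 1.17 in s215. Arabinogalactan proteins, chosen likewise, had 2 higher and 2 lower of 30, with AGP1 at 15.2 RPKM in atprmt5 and 67.1 in m90 and AGP7 at 7.25 RPKM in atprmt5 and 0.670 in m90. AGP7 passed the minimum only through atprmt5. Lipid transfer proteins had 5 of 55 lower, among them LTP4 at 34.2 RPKM in atprmt5 and 8.11 in m90 and LTP2 at 157 RPKM in atprmt5 and 64.4 in m90.

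The 20 lowest loci also held genes outside the lists. AT2G47440, for a tetratricopeptide repeat protein, was at 79.3 RPKM in atprmt5 and 14.3 in m90. AT1G06980, named for a lumazine synthase, was at 7.06 RPKM in atprmt5 and 0.568 in m90, and AT1G77960 at 18.4 RPKM in atprmt5, 2.90 in m90, 2.08 in wild type and 47.05 in s215. AT1G77960 was highest in s215, and AT1G06980 passed the minimum only through atprmt5.

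Genes induced by darkness and sugar shortage divided. DIN2, a glucosidase gene, was at 31.6 RPKM in atprmt5, 2.87 in m90, 8.34 in wild type and 6.17 in s215, and DIN6, for an asparagine synthetase, at 124 RPKM in atprmt5, 42.8 in m90, 91.7 in wild type and 23.3 in s215. BT5, for a BTB and TAZ domain protein, was on the other side, at 3.50 RPKM in atprmt5 and 72.3 in m90, and BT1 was at 13.2 RPKM in atprmt5 and 46.99 in m90. Of the 11 genes of that list above the minimum 3 were higher and 2 lower. EXORDIUM-like genes, which respond to sugar, had 2 of 7 higher, with EXL2 at 43.3 RPKM in atprmt5 and 102 in m90, and 2 lower, with EXL5 at 129 RPKM in atprmt5 and 31.6 in m90. Of 10 glucosinolate genes 1 was lower, MYB28, the regulator of the methionine-derived branch, at 69.1 RPKM in atprmt5 and 31.7 in m90. Its targets MAM1 and CYP79F1 were at 463 RPKM in atprmt5 and 263 in m90 and at 197 RPKM in atprmt5 and 163 in m90. PAD3, for the last step of camalexin synthesis, was at 2.05 RPKM in atprmt5 and 2.23 in m90. Of 7 nitrate genes 1 was higher, AT1G68670 at 54.8 RPKM in atprmt5 and 117 in m90, and NIA1, a nitrate reductase gene, was at 68.1 RPKM in atprmt5 and 124 in m90.

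Genes of splicing and flowering, the processes tied to AtPRMT5, lay close together in the 2 libraries, with 1 exception. None of 18 spliceosome genes above the minimum was 2-fold apart, and their median log2 ratio was -0.06. Among genes of the complex around Prp19, MAC3B was at 52.3 RPKM in atprmt5 and 58.2 in m90, PRL1 at 34.2 RPKM in atprmt5 and 37.2 in m90 and CDC5 at 165 RPKM in atprmt5 and 129 in m90. The log2 ratios of the whole list ran from -0.45 to 0.38. None of 9 arginine methyltransferase genes was called, PRMT1A being the farthest at 6.98 RPKM in atprmt5 and 12.3 in m90. Of 16 flowering genes 1 was lower, the floral repressor FLC (AT5G10140, chromosome 5, 3173382 to 3179448, minus strand). FLC passed the minimum only through atprmt5, so its lower value was bound to follow, and it had about 9 reads in m90. The FLC levels were 3.28 RPKM in atprmt5, 0.467 in m90, 1.66 in wild type and 22.6 in s215. The level was lowest in m90 and highest in s215, and the ratio to atprmt5 was 0.142 (0.0648 to 0.301). The promoter of flowering SOC1 was at 19.5 RPKM in atprmt5 and 34.97 in m90 and SVP, another repressor, at 193 RPKM in atprmt5 and 205 in m90. Of 16 clock genes 2 were higher, RVE1 at 14.5 RPKM in atprmt5 and 48.4 in m90 and BOA at 0.927 RPKM in atprmt5 and 2.89 in m90. BOA passed the minimum only through m90. The central gene CCA1 was at 130.3 RPKM in atprmt5 and 148 in m90.

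Ribosomal protein genes differed little, and mostly in 1 direction. Of 310 above the minimum 276 (89%) had a log2 ratio above 0, against 46.2% of all loci kept, and the family median was 0.38 against -0.04. After a trend in GC content and length was taken out, the family median was 0.25. Only 3 were 2-fold higher, the largest being AT5G16200 at 2.08 RPKM in atprmt5 and 17.9 in m90. The site II element was in 46.1% of their promoters and the telo box in 16.1%. None of 43 core histone genes or 27 light-harvesting genes was called, with medians of 0.11 and -0.05. Of 30 cyclin genes 3 were higher, among them CYCP3;2 at 1.14 RPKM in atprmt5 and 6.58 in m90.

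Other families are set here against the shares over all loci, 3.71% higher and 2.37% lower, and several lay near them. Cytochrome P450 genes had 7 of 148 higher (4.73%) and 6 lower (4.05%), with a median log2 ratio of -0.08. UDP-glycosyltransferases had 4 of 99 higher (4.04%) and 2 lower (2.02%), with a median log2 ratio of -0.03. Glutathione transferases had 2 of 46 higher (4.35%) and 3 lower (6.52%), with a median log2 ratio of 0.03. GSTF8 was at 35.97 RPKM in atprmt5 and 84.5 in m90 and GSTF6 at 42.2 RPKM in atprmt5 and 12.7 in m90. Protein phosphatases 2C had 4 of 56 higher and 1 lower, with a median log2 ratio of -0.04, and the lower one was AT5G02760 at 59.98 RPKM in atprmt5 and 20.7 in m90. Peroxidases had 3 of 67 higher (4.48%) and 3 lower (4.48%), with a median log2 ratio of 0.10. TPX2 was at 6.76 RPKM in atprmt5 and 16.1 in m90 and DOX1, which oxidises fatty acids, at 101 RPKM in atprmt5 and 36.5 in m90. Glycine-rich proteins had 6 of 42 higher and 1 lower, with a median log2 ratio of 0.16, with AT1G07135 at 12.7 RPKM in atprmt5 and 167 in m90. Mannose-binding lectins, chosen after their values were seen, had 0 of 18 higher and 4 lower, with a median log2 ratio of -0.27. Of the 4, 2 passed the minimum only through atprmt5. Cotton fiber proteins, also chosen after their values were seen, had 5 of 15 higher and 0 lower, with a median log2 ratio of 0.55. Of the 5, 2 passed the minimum only through m90. ABC transporters had 0 of 42 higher and 1 lower, with a median log2 ratio of -0.17, and the lower one was ABCG22, which acts in stomata, at 30.1 RPKM in atprmt5 and 10.3 in m90. Of 25 aquaporin genes TIP3;1 alone was called, and of 26 matched beta glucosidase genes BGLU19 alone, at 2.69 RPKM in atprmt5 and 0.0297 in m90. TIP3;1 and BGLU19 passed the minimum only through atprmt5. None of 16 cytokinin response regulators or 19 matched glutaredoxins was called. The match by product name left out DIN2, a glucosidase gene called lower, and GRX480, a glutaredoxin gene called higher. Of 5 defensin-like genes 1 was higher, AT3G05730 at 20.9 RPKM in atprmt5 and 79.1 in m90. Among loci matched to seed storage and related proteins, 7 of 67 were lower and 2 higher, a set that includes lipid transfer proteins. Of the 7, 4 passed the minimum only through atprmt5, and the 2 higher ones passed it only through m90.

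Some called loci lay next to each other. In the order of loci kept, the 688 higher loci formed 42 runs of adjacent members holding 93 loci, 8 of them with 3 or more. The 440 lower loci formed 24 runs holding 50 loci. A lower run of 4 SAUR genes spanned chromosome 1 from 10302585 to 10308246. On chromosome 4 the cold regulators CBF2, CBF3 and CBF1 formed a higher run from 13015250 to 13022996, and CRK10, CRK11, AT4G23215 and CRK14 another from 12137995 to 12156881. On chromosome 5 the 3 PROPEP genes were adjacent, from 25934568 to 25940080. On chromosome 1 the TIR domain loci AT1G72900, AT1G72910 and AT1G72920 were adjacent, from 27432178 to 27439209. The next locus of that cluster, AT1G72930, was at 61.1 RPKM in atprmt5 and 105 in m90 and not called. Other runs joined genes of different families, such as GPAT2 and GA2OX6.

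Close to the threshold the calls rest on small differences. Just inside it on the higher side were SYP21 at 8.87 RPKM in atprmt5 and 18.8 in m90, GPAT3 at 30.05 RPKM in atprmt5 and 61.2 in m90 and MES5 at 0.778 RPKM in atprmt5 and 2.56 in m90. Just outside were CCR3 at 2.78 RPKM in atprmt5 and 6.55 in m90, LEA14 at 27.4 RPKM in atprmt5 and 55.6 in m90 and AT1G21010 at 35.01 RPKM in atprmt5 and 70.97 in m90. On the lower side FMO at 17.03 RPKM in atprmt5 and 7.99 in m90, AT4G18422 at 2.79 RPKM in atprmt5 and 0.892 in m90 and PMEPCRF at 65.2 RPKM in atprmt5 and 32.1 in m90 lay just inside. ARR6 at 5.15 RPKM in atprmt5 and 2.08 in m90, CSLA10 at 5.94 RPKM in atprmt5 and 2.47 in m90 and AT3G05900 at 227 RPKM in atprmt5 and 113 in m90 lay just outside.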

How the data were processed

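RNA of whole seedlings was sequenced in 4 libraries, 1 per genotype, and 1 table of RPKM for 24288 loci was deposited by the authors. Its 4 columns matched the samples by name, with 0 left unmapped. Per the submitters' processing notes, TopHat2 2.0.11 and the TAIR10 build were used. Per the labels' protocols the libraries were strand-specific. How reads were counted, with or without strand and with several matches, is not stated in the labels.

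The atprmt5 and m90 columns were compared for loci whose mean reached 1 RPKM, as log2 ratios with a pseudocount of 1, which understates differences of low genes. No test was possible. Reads were recovered approximately from RPKM, annotated exonic length and a scaling total taken from the commonest 1-read value, with 95% Clopper-Pearson intervals conditional on the summed reads. Where a library was at 0, a floor of 3 reads in that library was used. Intervals and floors cover counting error only, since PCR reads with no molecular identifiers may repeat a molecule. Recovered reads rest on lengths that may differ from the authors'. The comparison was tested on simulated data.

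The 25 lists by role (305 loci, 304 in the table) and the 47 families by product words were chosen with earlier results of these data known. Of the families, 5 were added, and words defining several others changed, after values were seen. Named loci were the 20 highest and 20 lowest, up to 4 members per list or family and direction with the largest differences, otherwise up to 2 with the highest mean, PRMT5, FLC, and loci at the threshold. Exceptions chosen after their values were seen are unchanged or contrasting members named beside called ones, and AT1G72930. Sequences and positions are from RefSeq, TAIR10.1, where 24183 loci matched. A copy at 95% identity over 80% of a transcript was sought with BLAST 2.17.0. Other tools were Python 3.11.15, pandas 2.3.3, NumPy 2.4.6, SciPy 1.17.1 and matplotlib 3.10.9.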

Additional observations from a re-analysis of the deposited data

How the results depend on the processing

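The count of lower loci was the value most dependent on how low levels were treated. A pseudocount of 0.1 gave 740 lower loci, a pseudocount of 5 gave 402 higher and 143 lower, and a minimum mean of 5 RPKM gave 271 lower, against 688 higher and 440 lower as reported. The other settings kept both counts within 1.5 times. These were no minimum (711 higher and 471 lower), the minimum over all 4 libraries (679 and 438), centring on the median (729 and 398) or on a trimmed mean (725 and 405), removing the trend in GC content and length (609 and 522), and counting only ratios whose interval leaves out 1 (683 and 436). Over lists and families, 1225 recomputed counts stayed within 1.5 times and 121 did not, while 621 medians moved by under 0.25 and 50 by more, and no median as large as 1 changed sign. In 19 lists and families whose reported medians lay within 0.26 of 0, 25 recomputed medians had the other sign. Without loci that have a near-identical or overlapping copy, 49 of 50 counts stayed within 1.5 times. AT1G22810, AT2G22880, AT5G51190, CIPK11, MEE5, MYC2, SIB2, AT1G16790 and UGT71B6 are such loci among those listed, and their values are uncertain. No paired analysis was possible because each genotype has 1 library. Depth limits loci of a few RPKM, and without replicates variation between plants is unknown.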

Other observations

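Loci that do not encode proteins were few. Of 21 microRNA loci kept 4 were higher and 4 lower, of 18 small nucleolar RNA loci 2 were higher and 4 lower, and of 101 long non-coding loci 2 were higher and 5 lower, against 670 and 411 of 18093 protein-coding loci. On the log2(RPKM + 1) scale AT2G01010, an 18S ribosomal RNA gene, had the lowest value of all loci kept, although CRA1 and CRC had lower ratios of RPKM. It had 281 RPKM in atprmt5, 9.92 in m90, 31.8 in wild type and 15.97 in s215. Ribosomal RNA exists in many near-identical copies, and how reads of such copies were counted is not given in the sources used here. Short RNA loci have few bases for reads to fall on, so these values are descriptions of the libraries.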
